A study of Homo sapiens with 24 samples.

Results

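The change from human embryonic stem cells (hESCs) to neuroectoderm was described in unedited cells, using the 6 of 24 libraries labelled hHAR123: 3 from hESCs at day 0 and 3 from neuroectoderm at day 5. All genes with enough counts were members, which left 22280 of 61551 genes for the test. The cells were H9 (WA09), an established hESC line, and they carried the human HAR123 sequence that the study elsewhere deleted (HAR123-KO) or replaced with the chimpanzee (cHAR123) or mouse (mHAR123) ortholog. HAR123 is a noncoding human accelerated region in an intron of SMG6, and the study asked what it does in neural differentiation. The hESC libraries came from cells kept in StemFlex medium on Matrigel. For neuroectoderm, confluent cells were held for 5 days in KnockOut DMEM with 10% KnockOut serum replacement, Noggin (500 ng/ml), which binds and blocks BMP ligands, and SB431542 (10 µM), an inhibitor of the receptor kinases ALK4, ALK5 and ALK7. Medium, inhibitors, cell density and time changed together, so their effects cannot be told apart. The study used a pair of independent clones per genotype for RNA-seq and speaks of biological replicates, but which clone gave each of the 3 libraries of a stage is not given in the sources used here. The p-values measure the spread between these libraries, which may in part be technical.

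Pluripotent hESCs are held in their state by a small network of transcription factors, among them POU5F1, NANOG and SOX2, together with FGF and activin or Nodal signals from the medium and from the cells themselves. Blocking the activin and BMP branches of TGF-beta signalling at once, known as dual SMAD inhibition, is a standard way to turn hESCs into neuroectoderm, the epithelial sheet that gives rise to the nervous system. Cells on that path lose POU5F1 and NANOG, keep SOX2 and gain PAX6 and SOX1.

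Total counts were 31682811, 33208090 and 35198684 in the hESC libraries and 21022748, 24198289 and 23418756 in the neuroectoderm libraries. Mitochondrially encoded RNA took 4.02% to 4.10% of the hESC counts and 2.16% to 2.21% of the neuroectoderm counts. Replicates of a stage differed by more than counting noise in each of the 6 pairs, where chi-square divided by its degrees of freedom ran from 1.72 to 3.56, so none was a copy of another. The first principal component held 94.6% of the variance and separated the stages.

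Between the stages, 5491 of 22280 genes rose (24.6%) and 4731 fell (21.2%), at an adjusted p under 0.01 and a change of more than 1 on the log2 scale in edgeR's quasi-likelihood test. The other 12058 genes were not called, although 17839 genes in all passed the p threshold. Large changes were common: 1015 genes rose and 1088 fell by more than 3 on the log2 scale, and 83 rose and 55 fell by more than 8. The libraries of the stages did not overlap for 85.4% of the genes tested, so a lack of overlap by itself sets few genes apart here. Levels are given as CPM, the counts of a gene relative to the total of its library, after scaling by TMM, a method that assumes most genes do not change. A single CPM value for a stage is the mean of its 3 libraries, and a span such as 41.4–45.7 CPM gives the lowest and highest library. With scaling by library totals alone the median change of all genes moved from 0.05 to 0.34 on the log2 scale, and the calls became 6948 higher and 3666 lower. Of all calls, 53.7% were higher with TMM and 65.5% with totals alone, so the balance of rises and falls depends on the scaling.

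**Figure D1:**
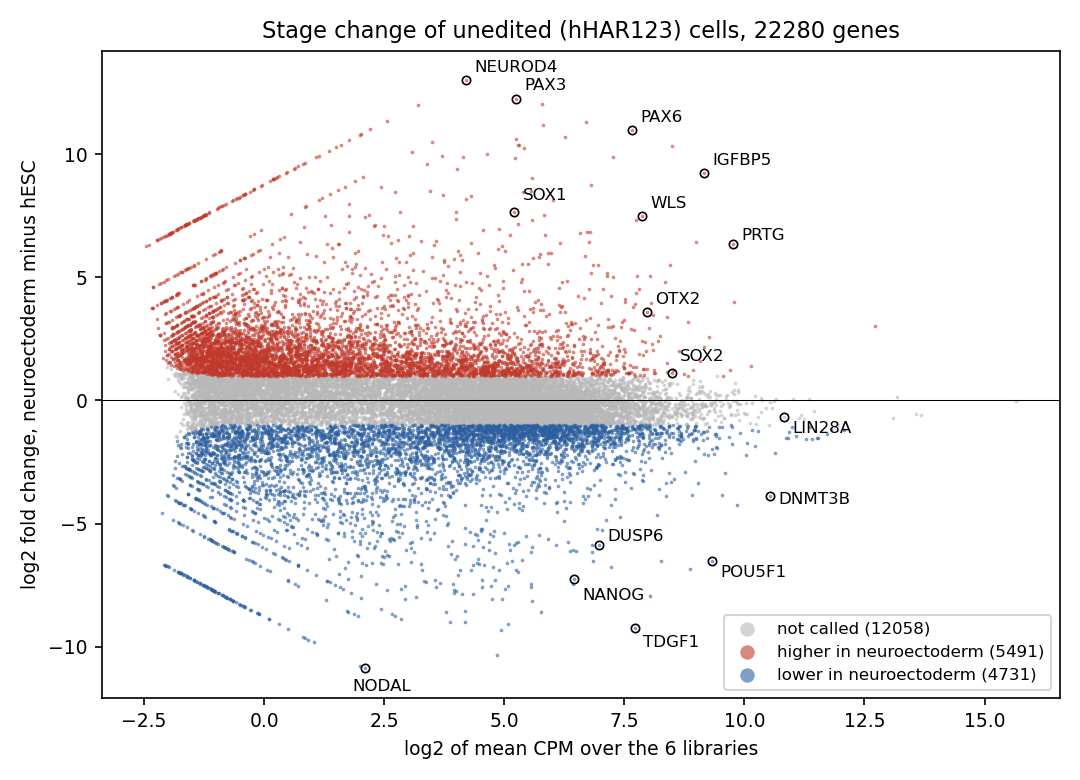
Log2 fold change from hESCs to neuroectoderm (vertical axis) against log2 mean CPM over the 6 libraries (horizontal axis), 1 point per gene tested. The 5491 red genes rose and the 4731 blue genes fell, with NEUROD4, PAX3 and PAX6 near the upper end and NODAL, TDGF1 and NANOG near the lower end. Straight diagonal rows of points at the left are genes with few or no counts at one stage.

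POU5F1, the pluripotency factor also called OCT4, was at 1280, 1260 and 1240 CPM in the hESC libraries and at 14.3, 13.1 and 14.5 CPM in the neuroectoderm libraries. This is a fall of 90.5-fold (log2 fold change -6.50, SE 0.04, adjusted p 6.86e-51). NANOG, its partner in the pluripotency network, went from 175, 176 and 171 CPM to 1.02, 1.05 and 1.36 CPM, a log2 fold change of -7.24 (SE 0.07). TDGF1, the Nodal co-receptor also called CRIPTO, went from 408, 423 and 425 CPM to 0.938, 0.565 and 0.582 CPM, a log2 fold change of -9.24 (SE 0.07). The stages were far apart for each of these genes. Reads of TDGF1 can also fit its near-identical copy TDGF1P3, which went from 59.6–62.7 CPM to at most 0.213 CPM, so the division between the pair is uncertain. DNMT3B, a de novo DNA methyltransferase that is abundant in hESCs, went from 2790, 2790 and 2770 CPM to 188, 193 and 189 CPM (log2 fold change -3.87, SE 0.03).

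Among the 30 tested genes of the pluripotency list, 23 fell and 2 rose, with a median log2 fold change of -4.06 against 0.05 over all genes. Other members that fell were GDF3, a TGF-beta ligand (-7.24, SE 0.34), L1TD1, an RNA-binding protein derived from a transposon (920 to 7.99 CPM, -6.85, SE 0.05), PRDM14 (70.9 to 0.776 CPM) and the long noncoding RNA ESRG (610 to 6.76 CPM). TERF1, a telomere-binding protein with high levels in hESCs, fell from 664 to 73.5 CPM. Other members of the list went the other way. SOX2, a factor shared by hESCs and neural progenitors, was at 229, 232 and 225 CPM in hESCs and rose to 491, 500 and 479 CPM (log2 fold change 1.10, SE 0.03, adjusted p 9.94e-30). KLF4 rose just past the threshold, from 1.73–2.07 CPM to 3.37–4.27 CPM (log2 fold change 1.01, SE 0.16), and lost its call when DESeq2 was used (0.95). SALL4, a zinc finger factor, was at 375–377 CPM and then at 581–604 CPM, a change of 0.66 that was below the fold threshold.

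LIN28A and LIN28B, RNA-binding proteins that block the maturation of let-7 microRNAs, stayed abundant. LIN28A was at 2180, 2230 and 2240 CPM in hESCs and at 1450, 1390 and 1390 CPM in neuroectoderm, a log2 fold change of -0.66 (SE 0.02) that was not called. LIN28B was at 162, 165 and 164 CPM and then at 164, 157 and 161 CPM, and its libraries overlapped (-0.02, SE 0.03, adjusted p 0.499), with a value of 0.27 under library totals alone. Per kilobase of gene model, the level of LIN28A was 558 CPM in hESCs and 354 CPM in neuroectoderm, above that of POU5F1 at both stages (440 and 4.86 CPM). SALL4, LIN28A and LIN28B were picked out after their values were seen.

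**Figure D2:**
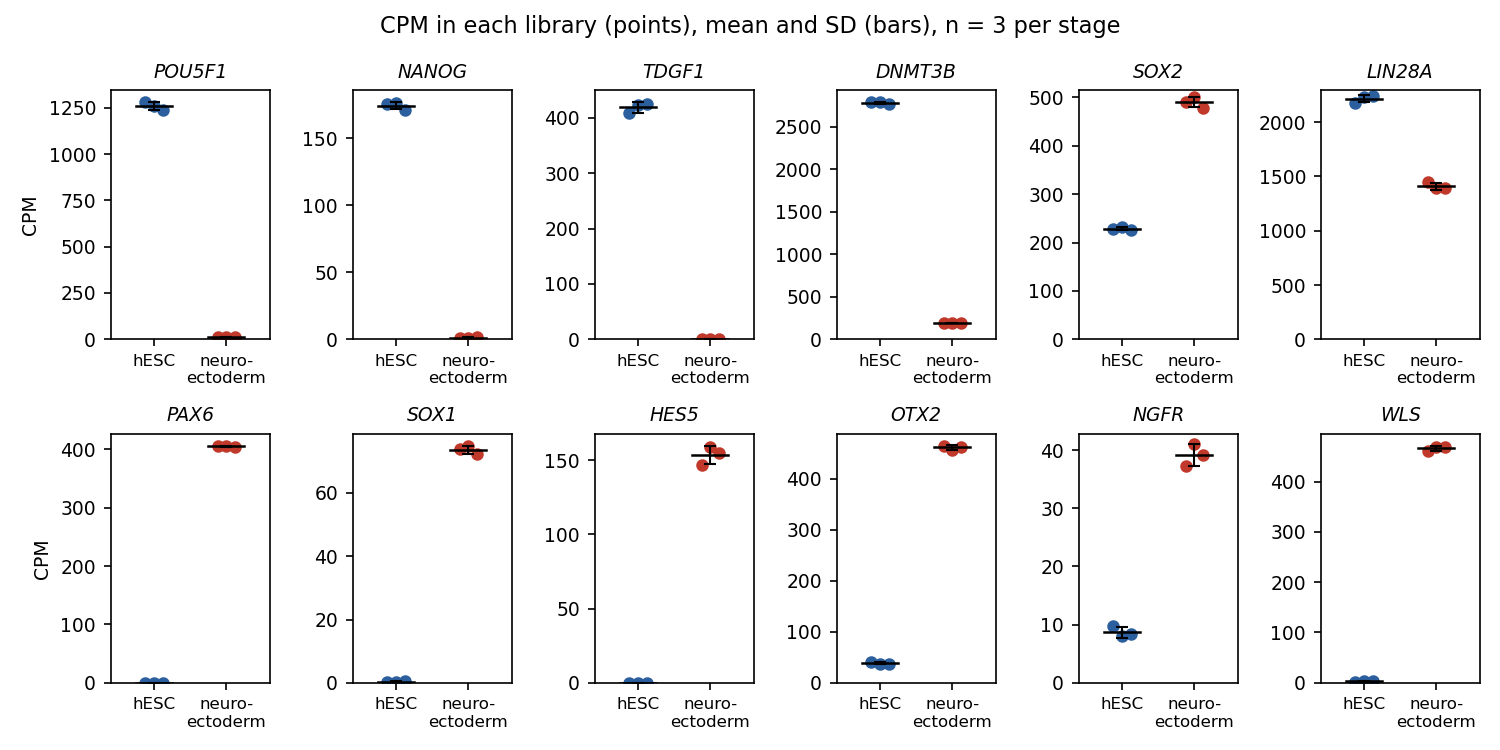
CPM of 12 genes in each of the 3 hESC (blue) and 3 neuroectoderm (red) libraries, with the mean and SD as black bars and each vertical axis starting at 0. POU5F1, NANOG, TDGF1 and DNMT3B dropped, LIN28A stayed at 1390 CPM or more, and SOX2, PAX6, SOX1, HES5, OTX2, NGFR and WLS were higher in every neuroectoderm library than in every hESC library.

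The host transcript of the miR-302/367 cluster, which encodes the dominant microRNAs of hESCs, fell with the pluripotency genes. MIR302CHG, on chromosome 4, was at 230, 238 and 245 CPM in hESCs and at 7.12, 5.42 and 6.86 CPM in neuroectoderm (log2 fold change -5.21, SE 0.06, adjusted p 3.75e-43). The mature microRNAs of the 3p strand are shown because all of them come from this one transcript and 4 of them share a seed (bases 2 to 8, in capitals), the part that pairs with target mRNAs. The 5p strands of the same hairpins have other seeds and are not shown. Sequences are from RefSeq on GRCh38.p14, minus strand.
hsa-miR-302a-3p: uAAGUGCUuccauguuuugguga
hsa-miR-302b-3p: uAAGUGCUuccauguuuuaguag
hsa-miR-302c-3p: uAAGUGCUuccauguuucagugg
hsa-miR-302d-3p: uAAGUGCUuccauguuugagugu
hsa-miR-367-3p: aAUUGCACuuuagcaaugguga
The miR-302 3p members carry the seed AAGUGCU and differ in their last bases, while miR-367-3p carries AUUGCAC. These libraries measured the host transcript, not the mature microRNAs, and the separate entries of the 5 hairpins held 0 counts in all 6 libraries.

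Hosts of the neural microRNAs miR-9 and miR-124 did not move together. MIR9-1HG, the host of miR-9-1 on chromosome 1, was at 6.31, 4.79 and 5.17 CPM in hESCs and at 26.5, 29.1 and 28.8 CPM in neuroectoderm (log2 fold change 2.38, SE 0.08). MIR124-2HG, the host of a copy of miR-124, a microRNA of neurons, was at 0.705, 0.466 and 0.595 CPM and then at 93.7, 100.0 and 92.1 CPM (log2 fold change 7.33, SE 0.09). The groups did not overlap for either gene. MIR124-1HG, the host of another copy of miR-124, fell from 20.8 to 2.26 CPM (-3.20, SE 0.10), and MIR9-3HG was low and not called (0.591 and 0.801 CPM). The miR-9 sequence is given for comparison, since its seed is unlike that of the miR-302 3p members.
hsa-miR-9-5p: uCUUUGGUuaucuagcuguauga
Of the 15 tested genes on the list of microRNA and small RNA hosts, 3 rose and 4 fell, and the median of -0.20 became 0.09 under library totals alone. A difference of this short list from all genes (24.6% higher and 21.2% lower) was not tested. MIRLET7BHG, which hosts let-7 family members, fell from 1.92 CPM to at most 0.0776 CPM, with 3 counts in all neuroectoderm libraries together (ratio 48.4, 95% counting interval 16.3 to 237).

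PAX6, the homeobox factor that marks human neuroectoderm, was at 0.247, 0.166 and 0.188 CPM in hESCs and at 406, 405 and 404 CPM in neuroectoderm, a log2 fold change of 10.96 (SE 0.08, adjusted p 2.28e-49). SOX1, a SOX factor confined to the early neural lineage, went from 0.352, 0.300 and 0.438 CPM to 73.8, 74.8 and 72.2 CPM (7.64, SE 0.10). HES5, a Notch-responsive repressor of neural progenitors, went from 0.0352, 0.0666 and 0.157 CPM to 147, 159 and 155 CPM (10.69, SE 0.11). None of these genes overlapped between the stages. NGFR, the p75 neurotrophin receptor, had a higher starting level, 9.80, 7.99 and 8.33 CPM, and rose to 37.3, 41.1 and 39.1 CPM (2.17, SE 0.07). OTX2, a head and forebrain factor already present in hESCs, rose from 41.6, 37.5 and 37.1 CPM to 465, 456 and 463 CPM (3.58, SE 0.04).

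Of the 34 genes on the neuroectoderm list, 28 rose and 3 fell, with a median log2 fold change of 2.88. Transcription factors of progenitors were prominent among the rises: ZBTB16 went from 0.521 to 222 CPM, POU3F2 from 0.612 to 113 CPM, DACH1 from 0.649 to 68.5 CPM and MEIS1 from 0.0561 to 21.9 CPM. LIX1, another member, went from 0.0777 to 74.8 CPM. CDH2, or N-cadherin, rose from 46.2 to 505 CPM and VIM, or vimentin, from 59.3 to 455 CPM. PROM1, which encodes the surface protein CD133, fell from 97.0, 98.9 and 101 CPM to 19.3, 19.2 and 20.4 CPM. ZIC1, a zinc finger factor of the dorsal neural tube, rose from 0.157–0.366 CPM to 15.6–16.4 CPM. FABP7, a lipid carrier of radial glia, was a borderline rise (1.02, SE 0.10) that dropped to 0.97 with DESeq2.

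By gain in CPM rather than in fold, the leading genes were only partly on that list. PRTG, or protogenin, an immunoglobulin-type membrane protein of the neural tube, went from 20.8, 22.0 and 20.1 CPM to 1800, 1670 and 1700 CPM (log2 fold change 6.36, SE 0.04). IGFBP5, a secreted binder of insulin-like growth factors, went from 1.59, 2.40 and 1.75 CPM to 1140 CPM in each library (9.21, SE 0.06). ZFHX4, a zinc finger and homeobox factor, went from 11.3–12.2 CPM to 996–1010 CPM, and GREB1L from 0.493–0.599 CPM to 708–730 CPM. These are levels that few genes reached at either stage. SULF1, which trims heparan sulphate on the cell surface, rose from 15.1 to 680 CPM, and the intermediate filament NES from 491 to 1160 CPM. The 12 largest gains and 12 largest losses in CPM among called genes were listed after the values were seen.

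Genes of the forebrain and eye field rose as a group: 17 of the 20 tested were higher and 2 lower, with a median log2 fold change of 5.14. FEZF2, a forebrain transcription factor, was at 0.0352, 0.0666 and 0.0626 CPM in hESCs and at 79.1, 81.2 and 78.1 CPM in neuroectoderm (10.38, SE 0.13). EMX2 went from 0.0555 to 77.9 CPM, LHX5 from 0.180 to 95.5 CPM, SP8 from 7.68 to 275 CPM and OTX1 from 1.71 to 190 CPM. NR2E1, an orphan receptor of neural stem cells, had 1 count in hESCs and 21.6–23.3 CPM in neuroectoderm, a ratio of 2030 with a 95% counting interval of 365 to 80400. Other members were low: SIX3 reached 4.18–4.86 CPM and LHX2 1.32–2.11 CPM. The 2 falls were in HESX1 (3.90–4.76 CPM to 1.24–1.36 CPM) and MITF, the pigment cell regulator, which held no counts in neuroectoderm and was at least 28.0-fold lower there.

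Fewer genes of the midbrain and hindbrain had enough counts. On this list 13 of 25 genes were tested, 11 rose and 1 fell, with a median of 2.59. LMX1A, a roof plate and midbrain factor, had no counts in hESCs and a mean of 18.3 CPM in neuroectoderm, at least 552-fold higher. WNT1, a signal of the midbrain-hindbrain border, had no counts in hESCs and 5.97–7.34 CPM in neuroectoderm, at least 204-fold higher. GBX2, which marks the anterior hindbrain, fell from 1.70–2.19 CPM to at most 0.194 CPM. The 39 HOX genes, which mark hindbrain and spinal cord, were all too low to be tested, and no HOX gene exceeded 0.298 CPM in any library.

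Early neuronal genes mostly rose: 18 of 27 tested were higher and 4 lower, with a median of 3.496. NEUROD4, a proneural factor, had the largest fitted rise of all genes that reached 5 CPM, from no counts in the 3 hESC libraries to 35.5, 36.6 and 38.5 CPM, at least 1110-fold. NEUROG2 had no counts in hESCs and 2.22–2.63 CPM in neuroectoderm, at least 71.5-fold higher. MAP2, a microtubule protein of dendrites, rose from 8.19 to 273 CPM and STMN2 from 0.495 to 19.2 CPM, but TUBB3 was at 5.60 and 9.01 CPM and was not called (0.69, SE 0.10). RBFOX3, the gene of the mature-neuron antigen NeuN, fell from 29.1 to 3.06 CPM, and the synaptic vesicle gene SYP fell from 14.5 to 4.43 CPM.

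Neural crest and plate border genes mostly rose, with 16 of 22 tested genes higher and 3 lower (median 2.45). PAX3, a border and dorsal neural tube factor, had 1 count in hESCs and 78.0, 73.7 and 74.7 CPM in neuroectoderm, a ratio of 6810 with a counting interval of 1220 to 269000. NR2F2 went from at most 0.125 CPM to 203, 209 and 209 CPM (11.30, SE 0.10) and its relative NR2F1 from 0.0437 to 76.1 CPM. TFAP2A, a border and surface ectoderm factor, reached 4.62–6.01 CPM, and PAX7 1.66–1.81 CPM. FOXD3, which is expressed in both hESCs and neural crest, fell from 41.4–45.7 CPM to 2.05–2.45 CPM (-4.26, SE 0.09).

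Other cell types were checked with short sets of 4 or 5 chosen markers, summed per library, and with the wider lists. Their part in the changes above was not tested. The 5 mesoderm markers TBXT, EOMES, HAND1, MIXL1 and MESP1 summed to 1.37–1.83 CPM in hESCs and 0.349–0.384 CPM in neuroectoderm. The 4 endoderm markers SOX17, FOXA2, GATA6 and GATA4 summed to 1.90–2.06 CPM and then to 0.0388–0.301 CPM, with SOX17 at 0 in all 6 libraries. Surface ectoderm markers summed to at most 0.0776 CPM in neuroectoderm, with TP63, KRT5 and KRT14 at 0. The 4 trophoblast and amnion markers summed to 4.89–4.98 CPM and 0.892–1.19 CPM, with CDX2 at 0 in neuroectoderm. Only 2 of them had enough counts to be tested, and they went opposite ways. GABRP fell from 4.77 to 0.0928 CPM, while ISL1 rose from 0.147 to 0.954 CPM. The 4 neuron markers rose from 13.5–16.2 CPM to 59.8–61.5 CPM in sum, all 4 called. The sum of 4 neural crest markers fell from 46.2–50.1 CPM to 16.0–17.2 CPM with FOXD3 lower and SOX10, PAX7 and SNAI2 higher. The 4 glial markers fell from 29.1–30.1 CPM to 1.17–1.47 CPM, nearly all of it MBP, and the 4 fibroblast markers from 512–541 CPM to 85.5–89.1 CPM, with DCN at 0 in hESCs. Of the fibroblast set only COL1A1 and THY1 had enough counts to be tested, and both fell, so the sum rests on them. The 10 pluripotency markers summed to 8720–8770 CPM in hESCs and 2190–2260 CPM in neuroectoderm, most of the remainder being LIN28A and SOX2, and the 10 neuroectoderm markers to 324–332 CPM and 2150–2170 CPM. All 10 neuroectoderm markers rose and 8 of the 10 pluripotency markers fell, while SOX2 rose and LIN28A was not called. These sets were chosen with earlier results of these data known, so they are no independent check of the labels. The wider lists of these lineages held few genes with enough counts: 6 of 16 surface ectoderm and placode genes rose and 6 fell, 3 of 8 mesoderm genes rose and 4 fell, 4 of 9 endoderm genes rose and 5 fell, 4 of 9 trophoblast and amnion genes rose and 2 fell, and 4 of 12 glial genes rose and 6 fell. Members outside the short sets could be far above the sums. On the endoderm list CXCR4 rose from 0.674 to 43.3 CPM, while FOXA2 fell from 1.89 to 0.0251 CPM. In bulk RNA, fewer cells of a type and less RNA per cell cannot be told apart.

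Signals blocked by the inhibitors were looked at through their ligands and targets. NODAL, the ligand that binds ALK4 and ALK7 with TDGF1, was at 9.13, 8.42 and 7.92 CPM in hESCs and held no counts in neuroectoderm, at least 214-fold lower. LEFTY1 and LEFTY2, secreted Nodal antagonists that are themselves Nodal targets, fell from 10.3–10.8 and 11.6–12.2 CPM to at most 0.388 and 0.298 CPM. Further targets of the pathway fell: PMEPA1 from 40.3 to 0.169 CPM (-7.84, SE 0.15), SKIL from 296 to 18.7 CPM, SMAD7 from 33.6 to 3.62 CPM, and FOXH1, the SMAD2 partner, from 103 to 2.29 CPM. The signal carriers did not follow. SMAD3 rose from 29.8–31.6 CPM to 82.9–85.1 CPM (1.46, SE 0.04), and SMAD2 (0.75), SMAD4 (0.51) and the receptor ACVR1B (0.22) were not called. FST, the activin binder follistatin, rose from 3.26–3.38 CPM to 28.5–33.2 CPM. Over the 30 tested genes of the list, 14 fell and 3 rose (median -0.71).

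BMP signalling gave a mixed picture, with 12 of 32 tested genes higher and 6 lower (median 0.57). ID1, ID2, ID3 and ID4 encode inhibitors of bHLH factors and are classical BMP targets. ID1 fell from 41.8, 41.3 and 39.6 CPM to 8.44, 8.28 and 9.08 CPM (-2.25, SE 0.07), and ID3 fell from 86.9, 85.6 and 82.6 CPM to 31.0, 31.8 and 32.7 CPM (-1.42, SE 0.04). ID2 was at 11.5 and 21.0 CPM, a change of 0.88 that was not called but reached 1.17 under library totals alone. ID4, in contrast, rose from 4.26, 3.60 and 4.23 CPM to 87.8, 87.7 and 87.5 CPM (4.44, SE 0.06). The family thus split by member. BAMBI, a decoy receptor induced by BMP, fell from 17.3–21.1 CPM to 0.853–1.24 CPM (-4.14, SE 0.13). BMP5, with no counts in hESCs, reached 2.15–2.87 CPM, at least 74.3-fold higher, and BMP2 rose from 4.65 to 24.9 CPM, while BMP4 fell from 2.31 to 0.847 CPM. NOG, the gene of the Noggin protein that was also added to the medium, rose from 0.257 to 2.96 CPM.

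FGF signals through the kinase ERK, which induces its own feedback inhibitors. DUSP6, a phosphatase that feeds back on ERK, was at 246, 245 and 245 CPM in hESCs and at 3.71, 4.89 and 3.84 CPM in neuroectoderm (-5.88, SE 0.06, adjusted p 1.28e-44). SPRY4 fell from 327 to 12.3 CPM and ETV4 from 131 to 5.65 CPM, both feedback or target genes of the same pathway. The ligand FGF2 was at 102 and 54.3 CPM and was not called (-0.92, SE 0.04). FGFR4 fell from 94.8 to 8.31 CPM, while FGFR1 (-0.14), FGFR2 (0.96) and FGFR3 (-0.11) were not called. EGR1, an immediate early ERK target, went against the others and rose from 29.4–30.6 CPM to 88.7–92.9 CPM (1.59, SE 0.04). Of 31 genes tested 14 fell and 3 rose (median -0.84), and 5 rose under library totals alone.

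Genes of WNT signalling rose more often than they fell, 26 against 10 of 51 tested (median 1.02). WLS, which carries WNT proteins to the cell surface, was at 2.26, 2.76 and 2.85 CPM in hESCs and at 460, 469 and 469 CPM in neuroectoderm (7.46, SE 0.05). Ligands rose with it: WNT7B went from 0.176–0.300 CPM to 92.4–95.4 CPM and WNT5B from 2.54 to 117 CPM. The agonist RSPO2 rose from 0.649 to 34.3 CPM and the nuclear effector LEF1 from 0.479 to 32.3 CPM, and the feedback target AXIN2 from 22.1 to 50.2 CPM (1.18, SE 0.05). FZD5, a receptor linked to eye development, fell from 186–194 CPM to 46.6–48.7 CPM, and SFRP5 and WIF1, secreted inhibitors, fell to at most 0.233 and 0.170 CPM.

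Notch and Hedgehog genes also leaned upward. On the Notch list 13 of 32 genes rose and 2 fell (median 0.78): the ligand DLL1 went from 2.52 to 215 CPM, the modifier LFNG from 21.3 to 343 CPM and HES4 from 0.333–0.720 CPM to 74.8–78.9 CPM. The receptor NOTCH1 (325 and 283 CPM) and the target HES1 (14.8 and 11.6 CPM) were not called. HES6 fell from 40.7–44.5 CPM to 8.27–9.37 CPM, and HEY2 from 13.8 to 2.03 CPM. On the Hedgehog list 11 of 18 rose and 3 fell (median 1.59). GLI1, the most direct Hedgehog target, fell from 17.4, 17.4 and 16.8 CPM to 0.213, 0.339 and 0.155 CPM (-6.15, SE 0.17). PTCH1, another target and the receptor itself, rose from 33.9 to 190 CPM (2.49, SE 0.04), so these targets went in opposite directions, and SHH was too low to be tested. The co-receptors GAS1 (4.33–5.73 CPM to 143–144 CPM) and BOC (9.03 to 209 CPM) rose. Of 17 tested genes of retinoic acid metabolism, 4 rose and 7 fell. ALDH1A1, a retinoic acid synthesizing enzyme, fell from 1.13–1.75 CPM to at most 0.0852 CPM, and of the degrading enzymes CYP26A1 fell (5.29 to 0.733 CPM) while CYP26B1 rose (0.282–0.317 CPM to 2.48–3.32 CPM).

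**Figure D3:**
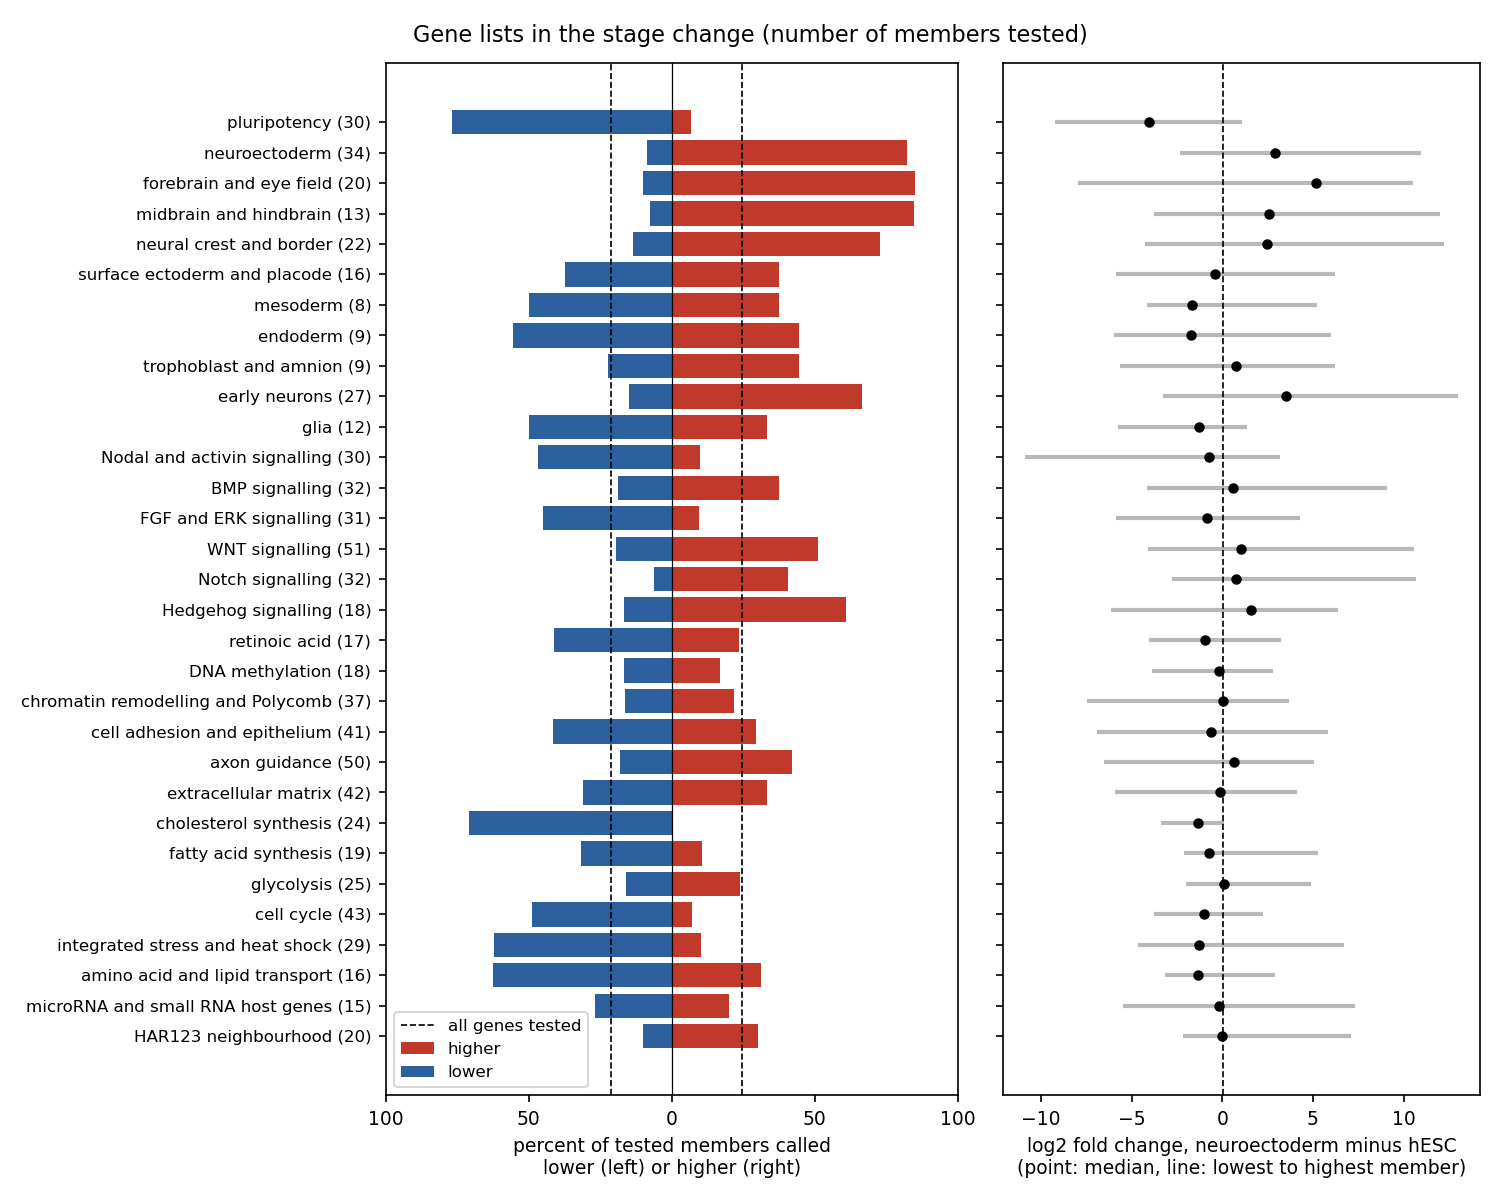
Left, percent of tested members of each of 31 gene lists called lower (blue, leftward) or higher (red, rightward) in neuroectoderm, with dashed lines at 21.2% and 24.6% for all genes tested. Right, median (point) and range (line) of the log2 fold change of the members. Pluripotency, cholesterol synthesis and stress lists extend to the left, and neuroectoderm, forebrain and hindbrain lists to the right.

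Promoters are shown for 3 genes with large changes, because 2 short motifs named in textbooks for POU5F1 (ATGCAAA, an octamer core) and SOX factors (CATTGT) can be found in them. Each is the 250 bases before the RefSeq start of transcription on GRCh38.p14, read in the direction of the gene, with motif matches on either strand in capitals. NANOG (chr12:7789152-7789401, plus strand) holds both motifs on the reverse strand, 120 and 112 bases before the start and 1 base apart. This RefSeq start lies inside the longer Ensembl gene on which the counts were made. MIR302CHG (chr4:112650052-112650301, minus strand) holds ATGCAAA at 202 bases before the start. HES5 (chr1:2530264-2530513, minus strand), which rose, holds CATTGT at 209 and 170 bases before the start.
NANOG: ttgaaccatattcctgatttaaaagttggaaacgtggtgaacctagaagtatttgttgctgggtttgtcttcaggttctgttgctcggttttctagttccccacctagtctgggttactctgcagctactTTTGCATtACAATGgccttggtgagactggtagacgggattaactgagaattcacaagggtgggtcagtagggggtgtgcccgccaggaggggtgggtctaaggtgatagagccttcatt
MIR302CHG: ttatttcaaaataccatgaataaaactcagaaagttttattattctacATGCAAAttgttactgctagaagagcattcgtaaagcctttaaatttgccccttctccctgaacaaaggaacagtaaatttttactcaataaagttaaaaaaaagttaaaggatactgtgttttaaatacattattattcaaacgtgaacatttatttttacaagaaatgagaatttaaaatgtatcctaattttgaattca
HES5: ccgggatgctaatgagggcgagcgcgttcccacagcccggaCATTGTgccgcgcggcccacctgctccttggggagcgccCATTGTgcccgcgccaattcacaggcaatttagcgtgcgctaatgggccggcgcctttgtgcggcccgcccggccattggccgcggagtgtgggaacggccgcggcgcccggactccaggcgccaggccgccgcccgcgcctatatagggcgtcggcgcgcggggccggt
Such short motifs are common. A promoter was matched for 12030 of 15015 protein-coding genes tested, and 2.94% of them held ATGCAAA against 3.98% of all 27305 promoters of the same length. The share was 4.16% among genes that rose, 3.57% among genes that fell and 2.37% among genes not called. CATTGT was in 5.15% of the protein-coding promoters tested and 9.45% of all promoters, and in 6.16% of genes that rose, 5.34% of genes that fell and 4.8% of genes not called. Among genes that changed by more than 4 on the log2 scale it was in 10.8% of the 223 that rose and 7.59% of the 303 that fell. The core promoter motif TATAAA, counted alongside, went from 5.89% of those tested to 13.5% and 10.2% of the same groups, so higher shares there were not particular to CATTGT. A match is a description of the letters and not a bound site, and the motifs and genes were chosen after the values were seen.

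Single regulators of DNA methylation and chromatin changed, but neither list exceeded the shares of all genes (24.6% higher and 21.2% lower). On the DNA methylation list 3 of 18 tested genes rose and 3 fell (16.7% each). Its median of -0.19 became 0.10 under library totals alone. Besides DNMT3B, the maintenance enzyme DNMT1 fell from 355 to 170 CPM (-1.07, SE 0.03) and its partner UHRF1 from 165–169 CPM to 69.1–74.5 CPM (-1.22, SE 0.04), although neither kept its call under library totals alone, where the list had 1 fall (UHRF1 then at -0.92). TET2, which oxidizes methylated cytosine, rose from 11.2–11.5 CPM to 76.7–82.1 CPM, while TET1 was at 279 and 309 CPM and was not called. Of 37 chromatin genes 8 rose (21.6%) and 6 fell (16.2%). BCL11A, a zinc finger factor that joins BAF complexes, fell from 90.8, 96.5 and 94.7 CPM to 0.597, 0.565 and 0.427 CPM (-7.47, SE 0.10). The Polycomb genes CBX8 (0.995 to 12.8 CPM) and BMI1 (2.08–2.63 CPM to 16.2–18.3 CPM) rose and JARID2 fell from 530 to 125 CPM, while the catalytic subunit EZH2 was not called (0.49).

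Among genes of adhesion and epithelium, CDH1, or E-cadherin, fell from 224 to 3.87 CPM (-5.86, SE 0.06), EPCAM from 158 to 2.96 CPM, the tight junction gene CLDN7 from 57.4–59.7 CPM to 0.427–0.597 CPM, and the epithelial splicing factor ESRP1 from 159–165 CPM to 1.40–3.01 CPM. PODXL, a sialomucin of the hESC surface, fell from 1750 to 93.1 CPM. Apart from CDH2, rises were seen in the polarity gene CRB2 (4.37) and in the cadherins CDH6 (4.98), CDH10 and CDH18, the last from 0.211–0.376 CPM to 2.09–2.48 CPM. Over 41 tested genes 12 rose and 17 fell (median -0.62). Axon guidance genes included 21 rises and 9 falls among 50 tested (median 0.64). EPHA4, an ephrin receptor, rose from 12.4, 13.1 and 13.2 CPM to 419, 424 and 426 CPM (5.04, SE 0.04), and EPHA1 fell from 224–229 CPM to 2.15–2.71 CPM (-6.51, SE 0.06). In the matrix, FBN1, or fibrillin 1, rose from 18.7–20.8 CPM to 333–350 CPM and THBS2 fell from 37.7–42.1 CPM to 0.469–1.05 CPM. There, 14 of 42 genes rose and 13 fell, and the median of -0.13 became 0.16 under library totals alone.

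Of 24 genes of cholesterol synthesis, 17 fell and the other 7 were not called (median -1.36, and 12 fell under library totals alone). HMGCS1, which makes the precursor of mevalonate, fell from 337 to 107 CPM (-1.65, SE 0.03) and SQLE, the squalene epoxidase, from 161 to 48.9 CPM (-1.72, SE 0.04), while the regulator SREBF2 was not called (-0.65). FASN, the fatty acid synthase, fell from 2670, 2590 and 2540 CPM to 561, 622 and 615 CPM (-2.12, SE 0.03), with 6 of 19 fatty acid genes lower and 2 higher. The rises were in SCD5, a desaturase with high levels in brain (1.48–2.10 CPM to 68.7–71.9 CPM), and ELOVL2. Of 25 glycolytic genes 6 rose and 4 fell, neither above the shares of all genes (24.6% higher and 21.2% lower). Single members moved both ways. The lactate exporter SLC16A3 rose from 2.35–3.24 CPM to 74.7–83.5 CPM and the glucose transporter SLC2A1 from 264 to 810 CPM. The lactate carrier SLC16A1 and the hexokinase HK1 fell.

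Cell cycle genes fell in 21 of 43 cases and rose in 3 (median -0.995, and 16 fell under library totals alone). MYC went from 105 to 9.73 CPM (-3.43, SE 0.06), MYCN from 141 to 10.6 CPM (-3.74, SE 0.05), CCNE1, or cyclin E1, to 7.72–8.10 CPM from 46.0, 44.02 and 45.06 CPM and MCM3, a subunit of the replicative helicase, from 480 to 138 CPM. The inhibitors CDKN1C (11.5–11.7 CPM to 53.4–55.5 CPM) and CDKN1A (4.10–4.72 CPM to 13.8–16.0 CPM) rose. TOP2A, a topoisomerase of dividing cells, was at 414 and 420 CPM and was not called, nor were CDK1 (-0.52) and MKI67 (-0.93). Genes of the integrated stress response and of heat shock fell in 18 of 29 cases and rose in 3. SLC7A5, which imports large neutral amino acids, fell from 558, 555 and 560 CPM to 21.4, 23.6 and 22.4 CPM (-4.63, SE 0.04), CHAC1 from 31.2 to 3.49 CPM and the chaperone HSPA8 from 1860 to 519 CPM. Against this, DDIT4, an inhibitor of mTORC1, rose from 26.7–29.0 CPM to 372–389 CPM (3.79, SE 0.04), and HSPA6, a stress-induced chaperone, from at most 0.141 CPM to 10.4–11.4 CPM. Of 16 amino acid and lipid transport genes 10 fell and 5 rose, among them the creatine transporter SLC6A8 (156–161 CPM to 613–659 CPM) and the cholesterol exporter ABCA1 (45.4–49.8 CPM to 349–352 CPM).

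Of 15015 protein-coding genes, 16.4% rose and 24.6% fell, whereas of 4203 long noncoding RNAs 47.0% rose and 12.2% fell. Under library totals alone the balance of protein-coding genes turned, to 3291 higher and 2808 lower, while that of long noncoding RNAs did not (2351 higher and 443 lower). Long noncoding RNAs took 1.943% to 2.003% of the counts in hESCs and 3.74% to 3.98% in neuroectoderm. Those that rose were mostly low, with a median of 1.45 CPM in neuroectoderm against 12.7 CPM for protein-coding genes that rose. Several of the largest changes were in this class. LINC02700 was at 57.8, 56.4 and 57.7 CPM in hESCs with 3 counts in neuroectoderm (ratio 1450, counting interval 495 to 7020), LINC00678 fell from 109 CPM to at most 0.301 CPM, and LNCPRESS1, an RNA named for its role in pluripotency, fell from 35.1–37.7 CPM to at most 0.155 CPM. LHX5-AS1, with 2 counts in hESCs, was at 109–111 CPM in neuroectoderm, and EMX2OS went from at most 0.141 CPM to 109–114 CPM. Whether counting used the strand of the reads is not given in the sources used here, so reads of these and of the overlapping LHX5 and EMX2 cannot be told apart.

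**Figure D4:**
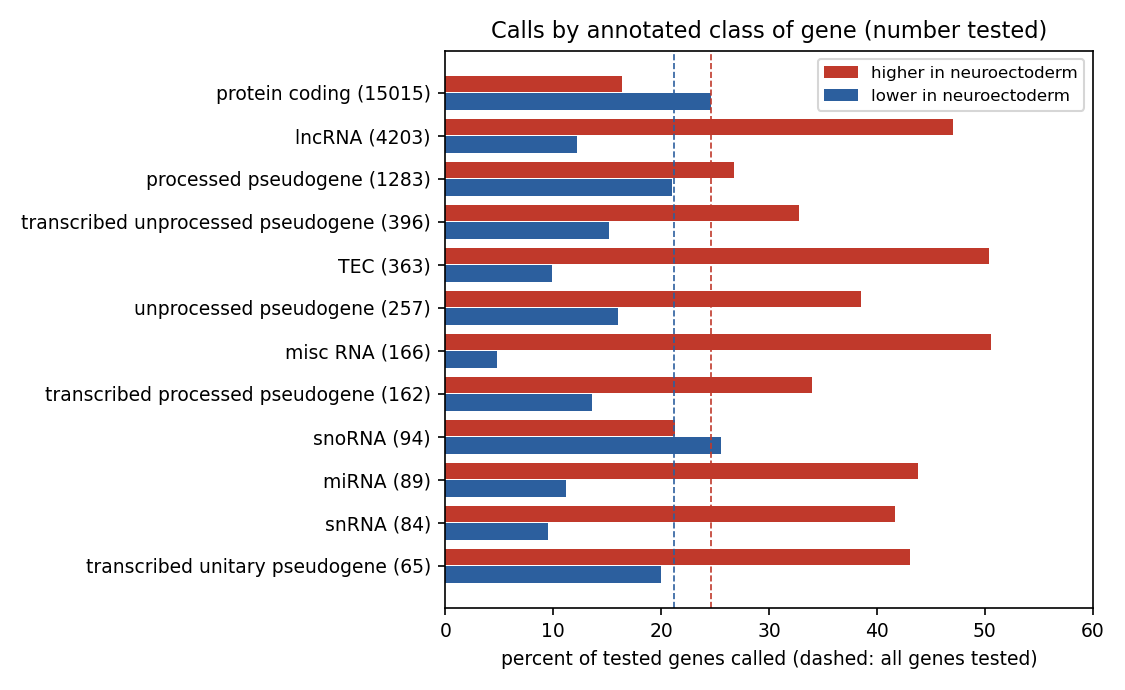
Percent of tested genes called higher (red) or lower (blue) in neuroectoderm for the annotated classes of gene, with the number tested in parentheses and dashed lines for all genes. Long noncoding RNAs reach 47.0% higher against 16.4% for protein-coding genes. TEC stands for entries to be experimentally tested.

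Where a long noncoding RNA and a protein-coding gene start within 1000 bases of each other on opposite strands, their changes were compared over 682 pairs. When the gene rose (97 pairs), the noncoding RNA rose in 83.5%. When the gene fell (120 pairs), the noncoding RNA fell in 19.2% and rose in 30.8%. When the gene was not called (465 pairs), the noncoding RNA rose in 53.1%, near the 47.0% of all long noncoding RNAs. Pearson's r of the log2 fold changes was 0.54 over these pairs, which are not independent of each other and share the libraries.

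Families of genes were also counted, chosen after the values were seen. All 5 tested PAX genes rose (PAX2, PAX3, PAX6, PAX7 and PAX8), and together they went from 0.633–0.811 CPM to 487–493 CPM. Of 51 clustered protocadherins, cell surface proteins that label single neurons, 22 rose and the rest were not called (376–385 CPM to 695–722 CPM in sum). Histone genes of the replication-dependent and linker type fell in 43 of 63 cases (24 under library totals alone) and summed to 17900–18700 CPM and then to 8510–9170 CPM. Many have near-identical copies, so single histone genes are uncertain. Of the 13 mitochondrially encoded protein genes, 12 fell (10 under library totals alone), for example MT-ND1 from 3990–4170 CPM to 1350–1360 CPM (-1.58, SE 0.02). Cytosolic ribosomal protein genes hardly moved, with 5 of 82 lower and a median of -0.13 that became 0.16 under library totals alone.

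The 5 most counted genes per length were the same at both stages. RN7SL1, the RNA of the signal recognition particle, had 175000 CPM per kilobase in hESCs and 171000 in neuroectoderm. In single libraries it was at 54900, 51800 and 50400 CPM in hESCs and at 47700, 53200 and 52800 CPM in neuroectoderm, and its libraries overlapped (-0.03, SE 0.03, adjusted p 0.25). Its near-identical copies RN7SL4P, RN7SL5P and RN7SL3 followed, with reads that could be divided among them, and then MT-CO1 at 10600–10900 CPM and 6590–6660 CPM (-0.70, not called). ACTB, or beta-actin, a common reference gene, had the largest loss in CPM among called genes and fell from 6120, 5970 and 5980 CPM to 2560, 2690 and 2660 CPM (-1.19, SE 0.02), and to -0.90 under library totals alone. GAPDH was at 2770 and 1850 CPM and was not called (-0.58).

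Around HAR123 on chromosome 17, 6 of 20 tested neighbours rose and 2 fell (median 0.00, and 0.29 under library totals alone). Over all genes 24.6% rose and 21.2% fell, and whether these few neighbours differ from that was not tested. SMG6, whose intron holds HAR123, was at 86.1, 87.9 and 86.6 CPM in hESCs and at 134, 139 and 131 CPM in neuroectoderm, a log2 fold change of 0.63 (SE 0.04) that was not called. HIC1, a transcriptional repressor that overlaps SMG6 on the other strand, was at 0.317, 0.333 and 0.157 CPM and then at 1.75, 1.05 and 1.09 CPM (2.25, SE 0.34, adjusted p 1.52e-07). The groups did not overlap, but HIC1 stayed low, and reads of SMG6 on the overlap could count toward it. RTN4RL1, a Nogo receptor homolog, had the largest change nearby, from 0.0666–0.176 CPM to 16.7–17.3 CPM (7.08, SE 0.18). SRR, serine racemase, rose (1.19–1.56 CPM to 6.22–7.83 CPM), and TSR1, a ribosome maturation factor, fell (183–185 CPM to 58.9–62.5 CPM).

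Whether the edited genotypes made the same change was tested as a difference of stage changes. The 3 tests share the hHAR123 libraries, and levels here are scaled by library totals. For HAR123-KO, 1820 of 23113 genes differed (7.87%), 932 with a higher stage change in hHAR123 (4.03%) and 888 with a lower one (3.84%). For cHAR123, 186 of 23329 differed (0.797%), 130 higher (0.557%) and 56 lower (0.24%), and for mHAR123, 229 of 23681 (0.967%), 157 higher (0.663%) and 72 lower (0.304%). The column labels of the counts and a supplementary table of the study disagree on which neuroectoderm libraries are cHAR123 and which mHAR123, and the column labels were followed. Across genes, the stage changes of hHAR123 and HAR123-KO had Pearson's r of 0.913 (20993 genes), against 0.965 for cHAR123 (21506 genes) and 0.961 for mHAR123 (21548 genes). Genes are not independent replicates. Of the genes that rose in hHAR123 and were tested in both, 77.0% also rose in HAR123-KO, which is 82.1% of those that rose there. The same shares were 83.4% and 91.4% for cHAR123, and 81.8% and 91.6% for mHAR123.

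POU5F1, NANOG and PAX6 moved the same way in HAR123-KO as in hHAR123. NANOG differed by 0.48 (SE 0.22, adjusted p 0.0984) and PAX6 by 0.77 (SE 0.49, adjusted p 0.248) between hHAR123 and HAR123-KO, and POU5F1 by 0.39 (SE 0.07), which was below the fold threshold. SOX1 had a higher stage change in hHAR123 by 1.77 (SE 0.36, adjusted p 5.84e-05). On the FGF and ERK list, 15 of 31 stage changes were higher in hHAR123 and 1 lower, and on the neural crest and border list 14 of 22 were lower and 1 higher. FOXD3, for example, went from 37.4–41.4 CPM to 2.28–2.69 CPM in hHAR123 and from at least 36.3 CPM to 187–188 CPM in HAR123-KO (difference -6.36, SE 0.085). PAX7 reached 1.84–1.98 CPM in hHAR123 neuroectoderm and 121–127 CPM in HAR123-KO neuroectoderm. Forebrain genes differed the other way, with 7 of 20 higher in hHAR123 and 1 lower: NR2E1 reached 23.8–25.6 CPM in hHAR123 neuroectoderm and 0.450–0.646 CPM in HAR123-KO neuroectoderm. MIR9-1HG had a stage change of 2.38 in hHAR123 and of -2.94 in HAR123-KO (difference 5.34, SE 0.20, adjusted p 8.51e-28), and the fall of MIR302CHG was smaller in hHAR123 by 3.0 (SE 0.17).

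**Figure D5:**
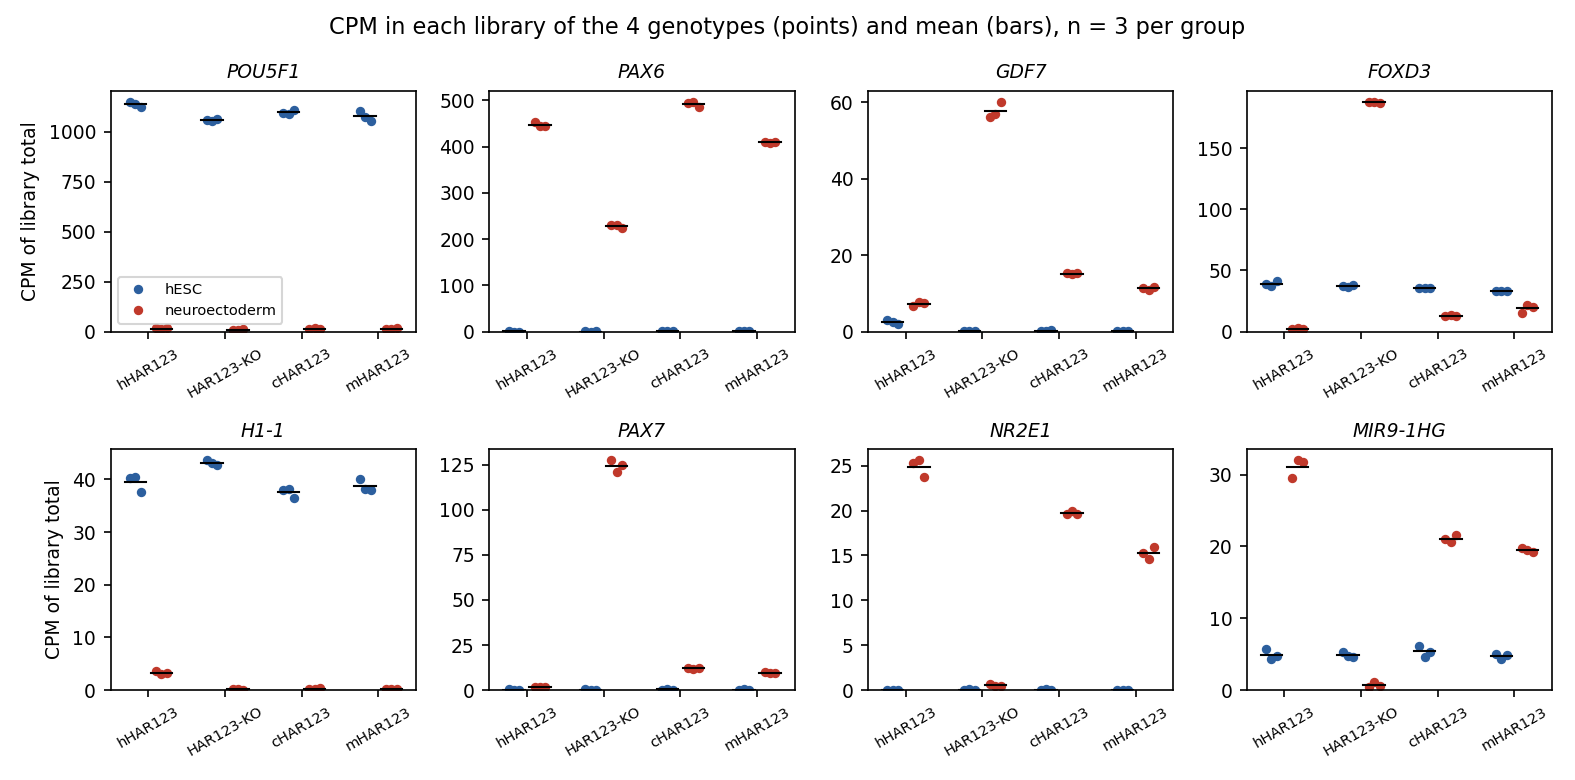
CPM of library totals for 8 genes in each library of the 4 genotypes, hESCs in blue and neuroectoderm in red, with the mean of 3 libraries as a bar and each vertical axis starting at 0. POU5F1 dropped in all 4 genotypes. PAX6 rose in all 4, to 445–453 CPM in hHAR123 and 224–231 CPM in HAR123-KO. Among the neuroectoderm groups, FOXD3, GDF7 and PAX7 were highest and NR2E1 and MIR9-1HG lowest in HAR123-KO.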

How the data were processed

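RNA from H9 hESCs and from day 5 neuroectoderm was sequenced after rRNA depletion, with a directional kit and paired ends. The authors aligned the reads to GRCh38 with STAR 2.5.2b and deposited raw counts per Ensembl gene from Subread featureCounts for 24 libraries (4 genotypes, 2 stages, 3 libraries each). The strand option of the counting is not given in the sources used here. One entry, ANK2, was broken over several lines and was left out. Every column of counts had a sample (0 without one).

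The test on these counts was that of edgeR 4.0.16, run in R 4.3.3 (filterByExpr by group, TMM, quasi-likelihood F test, Benjamini-Hochberg adjustment), one fit for the 6 hHAR123 libraries and one per other genotype for the difference of stage changes (4 groups, interaction term). Calls needed both an adjusted p below 0.01 and a change of more than 1 on the log2 scale. The SE is the absolute log2 fold change divided by the root of F. Tables and figures used Python 3.11.15, numpy 2.4.6, pandas 2.3.3, scipy 1.17.1 and matplotlib 3.10.9, and alternatives used edgeR or DESeq2 1.42.0. For a gene without counts at a stage, a floor of 3 counts over its group gave an "at least" fold, and for 1 to 3 counts the ratio has a 95% exact counting interval, which covers counting error only.

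The genes, lists and tests were chosen with earlier results of these data known. The named genes were a fixed set of names, the 10 largest increases and decreases among called genes with a symbol and at least 5 CPM in the higher stage, the 2 largest called in each direction per list, the 5 most counted per length at each stage, and per genotype the 3 largest differences in each direction at 5 CPM or more. A few genes that these rules name are not reported here. Further genes, the families, the motifs and the pairs of neighbouring genes were chosen after the values were seen. On simulated counts, 50 of 50 genes changed 4-fold in each direction and 49 of 50 raised 2.5-fold were recovered in the stage change (20111 genes), and 46 of 50 raised 2.5-fold in the difference from HAR123-KO (20342 genes). The simulation changed few genes, as many up as down, all above a minimum level in hESCs, with a single dispersion. It therefore does not cover low genes or a change as broad as the one measured. Alternatives were other scaling, no filter on low counts, DESeq2, other thresholds, all 24 libraries in one fit, thinning to the smallest library, a replicate block and leaving out each library.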

Additional observations from a re-analysis of the deposited data

Results flagged for a closer look

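Each of the following genes had a stage change in hHAR123 that differed from that in another genotype by a test of the difference itself (edgeR's quasi-likelihood test of the interaction, Benjamini-Hochberg adjusted). Differences are log2 values, the stage change in hHAR123 minus that in the other genotype, and the 3 comparisons share the hHAR123 libraries. Where a group is near 0 counts the fitted size depends on the prior count and is not a bound.

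Against HAR123-KO, the homeobox gene BARHL2 differed by 7.45 (SE 1.85, adjusted p 0.00088), NR2E1, the orphan receptor of neural stem cells, by 6.43 (SE 1.89, adjusted p 0.00468) and VWA2, an extracellular matrix protein, by 5.47 (SE 1.25, adjusted p 0.000311). BARHL2 was at 12.2–13.8 CPM of library totals in hHAR123 neuroectoderm and at 0.531–0.832 CPM in HAR123-KO neuroectoderm. In the other direction, PRSS56, a serine protease, differed by -7.16 (SE 1.62, adjusted p 0.000257), PAX7, a border and dorsal neural tube factor, by -6.81 (SE 0.56, adjusted p 1.12e-14) and GDF7, a roof plate BMP ligand, by -6.69 (SE 0.26, adjusted p 2.33e-27). GDF7 was at 6.71–7.69 CPM in hHAR123 neuroectoderm and at 56.0–60.1 CPM in HAR123-KO neuroectoderm, but it already differed in hESCs, at 2.10–3.06 CPM in hHAR123 and 0.068–0.273 CPM in HAR123-KO.

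Against cHAR123, the linker histone H1-1 differed by 3.41 (SE 0.25, adjusted p 1.41e-14) and the histone gene H4C13 by 2.39 (SE 0.39, adjusted p 1.17e-05). H4C13 was at 71.8–74.1 CPM in hHAR123 hESCs and 1.27–2.10 CPM in cHAR123 hESCs, and at 31.2–35.8 and 0.080–0.224 CPM in their neuroectoderm, so the genotypes differed at both stages. Histone genes have near-identical copies, so H4C13 is uncertain. GDF7, at 0.0738–0.359 CPM in cHAR123 hESCs and 15.0–15.4 CPM in cHAR123 neuroectoderm, differed by -4.81 (SE 0.29, adjusted p 3.37e-17), FOXD3 by -2.57 (SE 0.12, adjusted p 9.64e-22) and RELN, the gene of the secreted guidance protein reelin, by -2.44 (SE 0.29, adjusted p 1.76e-08).

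Against mHAR123, H1-1 differed by 4.06 (SE 0.28, adjusted p 8.83e-16), LEFTY2 by 3.79 (SE 0.99, adjusted p 0.0039) and ACTA2, smooth muscle actin, by 3.19 (SE 0.44, adjusted p 2.94e-07). GDF7, at 0.102–0.203 CPM in mHAR123 hESCs and 10.8–11.7 CPM in mHAR123 neuroectoderm, differed by -4.86 (SE 0.30, adjusted p 2.37e-17), FOXD3 by -3.25 (SE 0.14, adjusted p 1.29e-23) and RELN by -2.54 (SE 0.29, adjusted p 5.42e-09). The count columns and a supplementary table of the study disagree on which neuroectoderm libraries are cHAR123 and mHAR123, so the values of these genotypes follow the column labels only.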

How the results depend on the processing

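The count of 10222 genes called stayed between 9548 (thinned to the smallest library) and 11940 (no filter on low counts) under the alternatives that kept the fold threshold, and fell to 4424 (2326 higher, 2098 lower) at a log2 fold change over 2. DESeq2 called 4993 higher and 5211 lower, and library totals alone 6948 higher and 3666 lower. Leaving out 1 library gave 10201 to 10651 calls in all, 5468 to 5629 higher and 4733 to 5022 lower, and 1733 to 1777 differences from HAR123-KO, 159 to 174 from cHAR123 and 206 to 229 from mHAR123. DESeq2 gave 117 differences from cHAR123 in place of 186. Same-numbered libraries of the stages did not deviate together (correlations -0.023, 0.004 and -0.015). No pairing by number was seen, but these values cannot tell whether same-numbered libraries share a clone or culture. The replicate block gave 10106 calls (5402 higher, 4704 lower) and 1727, 155 and 185 differences from HAR123-KO, cHAR123 and mHAR123.

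Under library totals alone LIN28B became 0.27 and RN7SL1 0.26, and RN7SL1 ranged from -0.08 to 0.01 when 1 library was left out, turning sign without neuroectoderm replicate 1. FABP7, KLF4, RN7SL3 and ID2 lie near the fold threshold and changed their call under at least 1 setting, and OSR1 lost its call with DESeq2 (1.29, adjusted p 0.0632) and without some libraries, and calls were lost for ACTB (-0.90), MT-ND4 (-0.87), MT-ND5 (-0.80) and UHRF1 (-0.92) under library totals alone. Among the differences, VWA2 lost its call without neuroectoderm replicate 3 (4.43, adjusted p 0.0116), PRSS56 without hESC replicate 2 (-6.33) and LEFTY2 without neuroectoderm replicate 1 (2.91) or with DESeq2 (4.04, adjusted p 0.0106). The causes were not tested. Depth limits what can be said of genes under about 1 CPM, which hold few counts in these libraries.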

Other observations

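In all, 50 genes held no counts in the 3 hESC libraries and reached a mean of at least 1 CPM in neuroectoderm, 18 of them protein-coding. The other way, 43 genes held no counts in neuroectoderm and at least 1 CPM in hESCs, 26 of them protein-coding.

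Protein-coding genes were also divided by the length of their span on the genome into 5 groups of about 3003 genes. Of the shortest genes, spanning 0.207 to 10.56 kb, 14.8% rose and 33.6% fell, and the median log2 fold change was -0.49. Of the longest, spanning 107.1 to 2474 kb, 23.8% rose and 20.7% fell, with a median of 0.09. The medians of the groups in between were -0.32, -0.21 and -0.07. These values are under TMM, and the groups were not counted under other scaling. Under library totals alone the median of all protein-coding genes moved from -0.19 to 0.10. The division by length was made after the values were seen and was not tested.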
